A study of Mus musculus with 6 samples.

Results

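The vascular endothelial growth factor (VEGF) family was followed through 9 genes of a 24421-gene table, taken by symbol. They comprise 4 ligands (Vegfa, Vegfb, Vegfc and Pgf), 3 receptor tyrosine kinases (Kdr, Flt1 and Flt4) and 2 co-receptors (Nrp1 and Nrp2). All 9 symbols had a row, and all 9 reached the expression minimum for testing, 1 FPKM in at least 3 libraries. The libraries came from C57BL/6 mouse pups at postnatal day 7 and were labelled as retinal endothelial cells. The 3 control libraries carried the genotype Anxa3 fl/fl, and the 3 mutant libraries Anxa3 fl/fl;Tie2-Cre. Both groups therefore carry floxed alleles of Anxa3, the gene of annexin A3, and only the mutants carry Tie2-Cre, a recombinase driven in endothelial and blood-lineage cells. An effect of Cre itself and an effect of Anxa3 loss cannot be told apart in this design. The study asked which genes are affected when Anxa3 is lost, in connection with places where retinal arteries and veins cross.

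VEGF-A is the main growth signal for retinal vessels. In the postnatal retina it is made by astrocytes, Muller glia and neurons in tissue short of oxygen, and it acts on endothelial cells through the receptor VEGFR2, the product of Kdr. VEGFR1, from Flt1, binds VEGF-A, VEGF-B and placental growth factor tightly and holds VEGF-A away from VEGFR2. VEGFR3, from Flt4, is the receptor for VEGF-C, while the neuropilins Nrp1 and Nrp2 are co-receptors that also bind class 3 semaphorins.

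Values are FPKM, fragments scaled for gene length and library size, so levels of different genes can be set side by side. Within a group, values are listed for replicate 1, then 2, then 3. Reads behind the values ranged from 21377039 to 30885793 per library. The labels describe the cells as isolated, without the method, and leave the number of pups in a library unstated. The p-values therefore reflect only library-to-library spread, which may be technical. Anxa3 read 18.7, 17.7 and 43.4 FPKM for controls against 9.78, 12.5 and 15.1 FPKM for mutants, lower in every mutant library but present in each. Endothelial markers were present, with Pecam1 at 48.9 to 100.3 FPKM and Cdh5 at 51.2 to 113 FPKM, yet rod photoreceptor transcripts exceeded them, with Sag at 772 to 1265 FPKM. The summed level of 12 photoreceptor markers was 3469.9 to 4952 FPKM for controls against 4068 to 5399.5 FPKM for mutants. The sum of 20 pan-endothelial markers, none of them a VEGF gene, was 666 to 1540.5 FPKM for controls against 716 to 984 FPKM for mutants. Control replicate 3 stood apart, at 2.09 times the pan-endothelial level of the other controls. That level is a mean of log2(FPKM + 1) over the 20 genes, here taken back from the log scale. In such bulk samples, fewer cells of a type and less RNA per cell cannot be told apart.

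The promoters of a ligand and of 3 receptor genes are shown because the receptors varied together across libraries and the ligand Vegfa did not. Each is the 250 bases before the RefSeq start (table build GRCm38.p6), 5′ to 3′ in the direction of transcription. The Nrp1 window lies inside the gene as annotated in GENCODE M21, in an intron of a transcript that starts upstream, and the last 3 bases of the Kdr window overlap an annotated exon. Capitals mark GGAAG or its reverse complement CTTCC, the core bound by ETS factors, a family central to endothelial transcription, and TGACGTCA, the cyclic AMP response element.
Vegfa (chr17:46032378-46032627, minus strand): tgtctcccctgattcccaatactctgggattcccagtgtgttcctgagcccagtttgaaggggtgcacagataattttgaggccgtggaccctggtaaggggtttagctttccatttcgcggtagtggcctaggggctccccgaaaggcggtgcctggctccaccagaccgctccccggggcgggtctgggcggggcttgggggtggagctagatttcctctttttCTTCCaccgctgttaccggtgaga
Kdr (chr5:75978456-75978705, minus strand): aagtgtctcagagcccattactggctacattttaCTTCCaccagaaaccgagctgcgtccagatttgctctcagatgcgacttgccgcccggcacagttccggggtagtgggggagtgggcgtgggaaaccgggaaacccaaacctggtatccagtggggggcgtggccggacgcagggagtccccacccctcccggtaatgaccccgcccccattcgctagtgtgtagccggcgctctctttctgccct
Flt1 (chr5:147726012-147726261, minus strand): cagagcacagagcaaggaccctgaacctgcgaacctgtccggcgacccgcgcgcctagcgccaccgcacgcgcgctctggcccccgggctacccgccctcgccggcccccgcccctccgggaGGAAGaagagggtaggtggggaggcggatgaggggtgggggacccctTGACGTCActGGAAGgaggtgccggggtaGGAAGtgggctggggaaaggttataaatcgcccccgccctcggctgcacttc
Nrp1 (chr8:128358823-128359072, plus strand): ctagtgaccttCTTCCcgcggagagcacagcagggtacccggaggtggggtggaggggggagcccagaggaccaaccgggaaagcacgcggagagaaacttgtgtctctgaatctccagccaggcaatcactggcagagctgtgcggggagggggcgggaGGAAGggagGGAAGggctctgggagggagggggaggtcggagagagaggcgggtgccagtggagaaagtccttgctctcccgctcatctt
The ETS core occurred once in the Vegfa window, once in the Kdr window and 3 times each in the Flt1 and Nrp1 windows. It was present for 5 of the 9 VEGF genes and in 64.1% of 32851 RefSeq promoter windows of the same length, searched on both strands. TGACGTCA occurred for 1 of the 9, Flt1, and in 1.5% of all windows, and TATAAA also for Flt1 alone, against 12.4%. The GC box GGGCGG was found for 9 of 9 genes, against 32.7% of all windows. The 9 windows were 59.2% (Vegfa) to 76.4% (Vegfb) G and C, and the part of this in the counts was not tested. Among windows not printed, those of Pgf and Flt4 overlap an annotated exon over all 250 bases, and that of Nrp2 over 32. The hypoxia-factor core ACGTG was found for 0 of the 9 within these 250 bases, against 16.6%. These are matches of letters, not measured binding sites.

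Kdr was the most abundant VEGF gene in every library, at 107 FPKM on average, and 2% of tested genes had a higher mean. Below it came Vegfa at 33.7 FPKM, Flt1 at 29.7, Nrp1 at 21, Flt4 at 12.7, Nrp2 at 10.7, Vegfb at 8.56, Vegfc at 3.54 and Pgf at 1.45 FPKM, as means of 6 libraries. Neighbours in this order held their places in 6 of 6 libraries for 6 of the 8 steps. The exceptions were Vegfa over Flt1, in 5 of 6 libraries, and Nrp2 over Vegfb, in 4 of 6. Ranges over libraries were fully apart at 3 steps, from Kdr to Vegfa, from Vegfb to Vegfc and from Vegfc to Pgf. Pgf lay near the bottom of what could be tested, with 95.4% of tested genes above it.

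**Figure D1:**
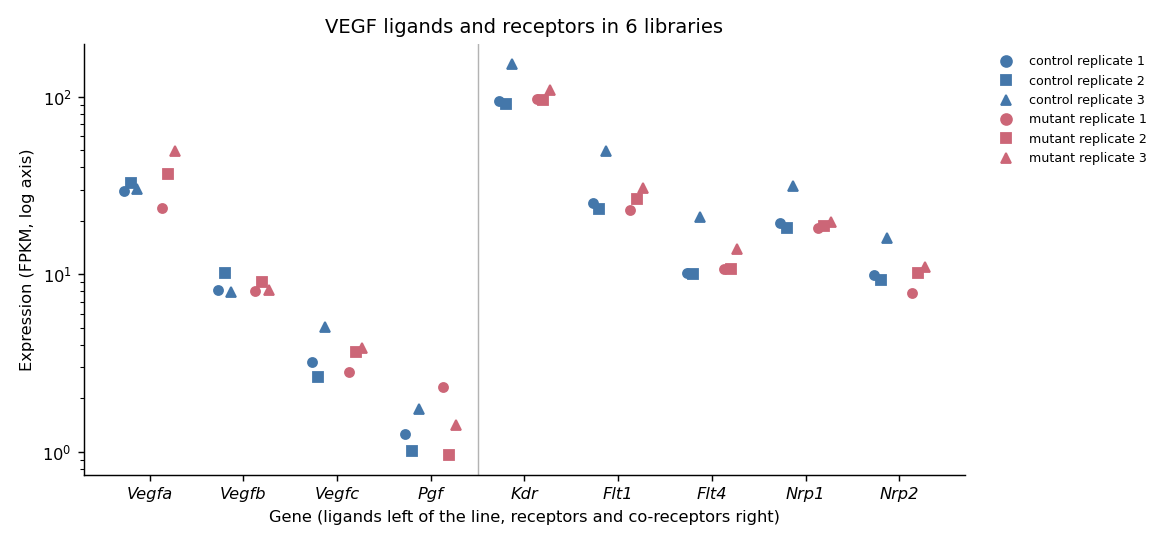
FPKM of each VEGF gene (log axis) in the 3 control libraries (blue) and 3 mutant libraries (red), with circles, squares and triangles for replicates 1, 2 and 3. Control replicate 3 is the highest library for all 5 receptors and co-receptors, and mutant replicate 3 for Vegfa.

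None of the 9 VEGF genes differed between the genotypes past the threshold, a limma adjusted p under 0.05. The count was 0 of 9, where 0% of all 13622 tested genes passed. At an unadjusted limma p under 0.05 it was also 0 of 9, where 1.21% of tested genes passed. Anxa3 itself did not pass the adjusted threshold, with a log2 difference of -0.93 and an unadjusted limma p of 0.0204. Log2 differences of the 9 VEGF genes, mutant minus control on log2(FPKM + 1), ran from -0.24 for Nrp1 to 0.19 for Vegfa. For 7 of the 9 they were negative, with a median of -0.13, against 52.5% negative and a median of -0.01 over all tested genes. Groups overlapped for all 9 genes, while every mutant library lay above every control library for 2.79% of tested genes and below for 1.56%. On these deposited values the limma 95% confidence intervals lay between -0.82, for Flt1, and 0.73, for Vegfa. None of them reached a log2 difference of 1 in either direction. Relative to the pan-endothelial level, the intervals reached 1.23 for Vegfa and 1.05 for Pgf. For Pgf and Vegfc the added 1 FPKM makes this scale understate a change.

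Among the ligands, Vegfa had the largest difference in means, in FPKM and on log2(FPKM + 1). The gene lies at chr17:46016993-46032369 on the minus strand (GRCm38, as are all positions below). It read 29.3, 32.7 and 30.1 FPKM for controls against 23.5, 36.8 and 49.6 FPKM for mutants. The mutants enclosed the controls on both sides, with mutant replicate 1 lowest and mutant replicate 3 highest of all libraries. Means were 30.7 ± 1.77 FPKM for controls against 36.6 ± 13.1 FPKM for mutants (SD, n = 3 per group) and the log2 difference was 0.19 (standard error 0.233, limma adjusted p = 1). Without mutant replicate 3 the difference was -0.06, and without mutant replicate 1 it was 0.47 (limma adjusted p of 1 and 0.876). Between 2066 and 5759 reads lay behind each value, so counting error is small here.

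Vegfb, whose product binds VEGFR1 and is known for roles in fatty acid handling and vessel survival, was the steadiest of the 9 genes. It read 8.11, 10.1 and 7.98 FPKM for controls against 8, 9.07 and 8.13 FPKM for mutants. The gene lies at chr19:6982473-6987651, minus strand. All 6 libraries lay within this narrow range, with control replicate 2 highest and the groups interleaved. The log2 difference was -0.04, with a limma 95% interval from -0.32 to 0.24. Control replicate 3, the library rich in endothelial transcripts, held 0.879 times the mean of the other controls for Vegfb and 0.97 times for Vegfa.

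Vegfc, the ligand of VEGFR3, read 3.22, 2.64 and 5.05 FPKM for controls against 2.83, 3.64 and 3.84 FPKM for mutants. The gene lies at chr8:54077606-54187096, plus strand. Unlike Vegfa and Vegfb, it was highest in control replicate 3, at 1.73 times the mean of the other controls. The value there, from 246 reads, had an exact Poisson 95% interval of 4.44 to 5.72 FPKM, above the interval of 3.33 to 4.41 FPKM for mutant replicate 3. These intervals cover counting error only. The log2 difference of -0.04 became 0.17 without control replicate 3, with a limma adjusted p of 1 and 0.999.

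Pgf, which encodes placental growth factor, a ligand of VEGFR1, read 1.25, 1.01 and 1.75 FPKM for controls against 2.31, 0.955 and 1.41 FPKM for mutants. The gene lies at chr12:85166635-85177790, minus strand. Mutant replicate 1 was highest, at 82 reads and an exact Poisson interval of 1.84 to 2.87 FPKM, and mutant replicate 2 lowest, at 50 reads and 0.709 to 1.26 FPKM. The log2 difference of 0.11 became -0.09 without mutant replicate 1. VEGF-D, the remaining ligand of VEGFR3, is listed under its older symbol Figf. It stayed under the minimum in all libraries, at 0.164 to 0.402 FPKM.

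Kdr, the main signalling receptor of VEGF-A, read 94.5, 91 and 154 FPKM for controls against 97.1, 96 and 109 FPKM for mutants. The gene lies at chr5:75932827-75978458, minus strand. Control replicate 3 was highest and the other controls lowest, with the 3 mutants between them. Means were 113 ± 35.5 FPKM for controls against 101 ± 7.28 FPKM for mutants (SD, n = 3 per group). The log2 difference was -0.13 (standard error 0.2, limma adjusted p = 1), and leaving out control replicate 3 turned it to 0.12 (limma adjusted p = 0.999).

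Flt1 read 25.3, 23.4 and 49.4 FPKM for controls against 23, 26.5 and 30.7 FPKM for mutants. Flt4 read 10.1, 10 and 21.1 FPKM for controls against 10.7, 10.7 and 13.8 FPKM for mutants. Flt1 lies at chr5:147561604-147726011, minus strand, and Flt4 at chr11:49609263-49652739, plus strand. For both receptors control replicate 3 was about the same multiple of the other controls, 2.03 times for Flt1 and 2.1 times for Flt4. That multiple was 1.66 for Kdr. For the pan-endothelial list it was 2.09, from means of log2(FPKM + 1) rather than from FPKM as for the single genes. Log2 differences were -0.21 for Flt1 and -0.14 for Flt4, and they became 0.12 and 0.19 without control replicate 3 (limma adjusted p = 0.999 for each).

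Flt4 is also a gene of lymphatic endothelium, a vessel type the retina is known to lack. Of 5 lymphatic markers, Ccl21a was at 0 in all libraries, Mmrn1 stayed at 0.369 to 0.866 FPKM and Lyve1 at 0.444 to 1.07 FPKM. Prox1 at 51.5 to 61.2 FPKM and Pdpn at 7.75 to 11.5 FPKM were higher. Prox1 is also made by retinal neurons and Muller glia, and Pdpn by other non-endothelial cells. In control replicate 3, where Flt4 was highest, Prox1, Pdpn and Lyve1 were lower than in the other controls and Mmrn1 was higher, at 0.733 FPKM against 0.384 and 0.437 FPKM. The part of lymphatic cells in the Flt4 values was not tested.

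Nrp1, the co-receptor that strengthens VEGF-A signalling through VEGFR2, read 19.5, 18.3 and 31.6 FPKM for controls against 18.2, 18.7 and 19.8 FPKM for mutants. Its log2 difference, -0.24 (standard error 0.189), had the smallest unadjusted limma p of the 9 genes, 0.241 (adjusted p = 1). Nrp2, the partner of VEGFR3, read 9.89, 9.28 and 16 FPKM for controls against 7.89, 10.2 and 11 FPKM for mutants, a log2 difference of -0.22. In both co-receptors control replicate 3 was highest, and the other controls lay within the range of the mutants. Nrp1 lies at chr8:128358604-128503363 and Nrp2 at chr1:62703285-62818695, both on the plus strand. Both log2 differences were 0 to 2 decimals without control replicate 3.

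**Figure D2:**
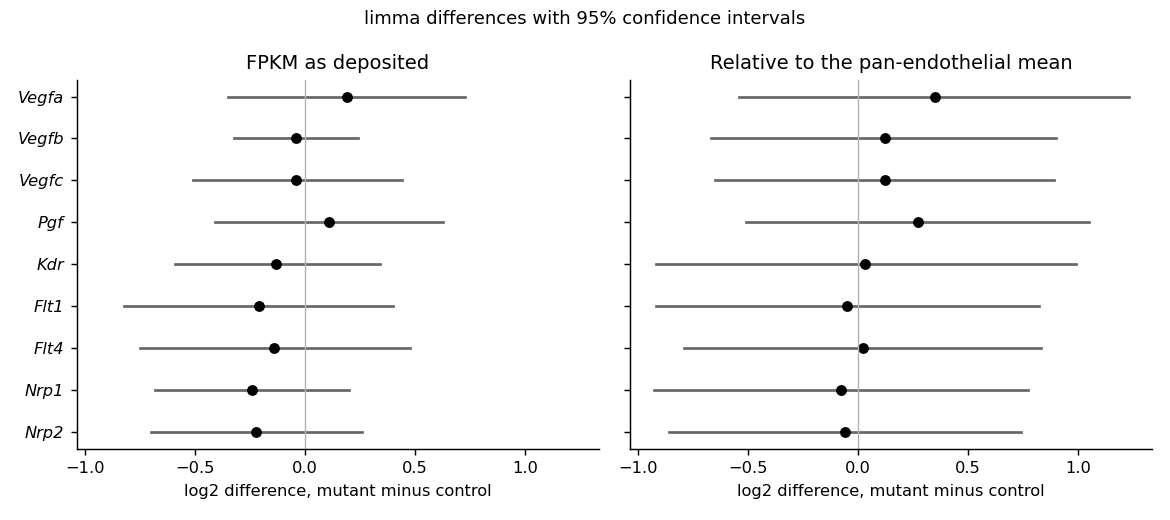
limma log2 differences (mutant minus control, horizontal axis; points) with 95% confidence intervals (bars) for the 9 VEGF genes, on FPKM as deposited (left) and after subtraction of each library's pan-endothelial mean (right). All 9 intervals include 0 in both panels.

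Across libraries, the receptors followed the amount of endothelial RNA closely, and the ligands Vegfa and Vegfb did not. The pan-endothelial level, a mean over 20 genes on log2(FPKM + 1), was 4.66, 4.53 and 5.66 for controls against 4.63, 4.76 and 4.99 for mutants. The SD over the 6 libraries of the receptors and co-receptors ran from 0.28 for Kdr to 0.4 for Flt1 on that scale. After subtraction of the pan-endothelial level it ran from 0.04 for Flt1 to 0.16 for Nrp1 and Nrp2, with 0.06 for Flt4 and 0.14 for Kdr. Only 4 of 13622 tested genes had a smaller relative SD than Flt1, and 17 a smaller one than Flt4. The 20 pan-endothelial genes themselves, each against the mean of the other 19, had SDs of 0.07 to 0.29, and the median of all tested genes was 0.45.

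Vegfa, Vegfb and Pgf parted from the receptors on this measure. Relative SD was 0.51 for Vegfa, 0.49 for Vegfb and 0.43 for Pgf, all larger than their SDs before subtraction, 0.35, 0.12 and 0.29. For Vegfc it was 0.18, smaller than the 0.27 before subtraction, as for the receptors. Pgf also rose in control replicate 3, at 1.55 times the mean of the other controls, but was highest in mutant replicate 1. For Pgf and Vegfc the added 1 FPKM shrinks a rise on this scale, while the subtraction takes off the whole endothelial shift. Their relative SDs carry that limit. No test was made of this description over 6 libraries, which share depth and tissue make-up, and control replicate 3 has the largest deviation for every receptor and co-receptor.

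**Figure D3:**
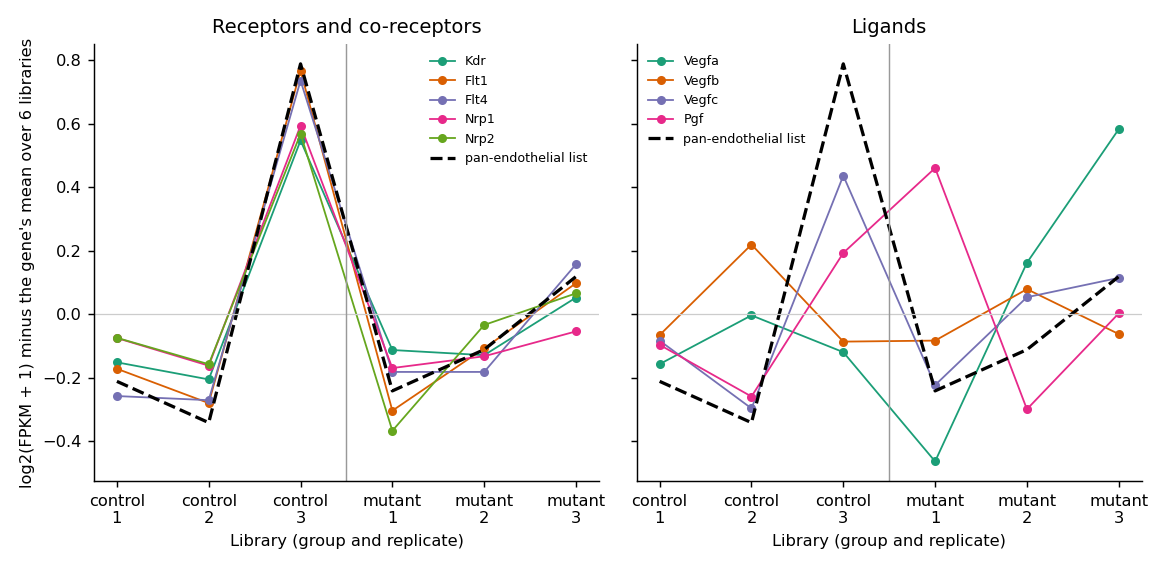
Each VEGF gene's log2(FPKM + 1) minus its mean over 6 libraries (vertical axis) by library, for the receptors and co-receptors (left) and the ligands (right), with the pan-endothelial list as a dashed line. Lines only join the points of a gene. The receptors follow the dashed line to its peak in control replicate 3, as does Vegfc, while Vegfa and Vegfb do not. Pgf rises there too, at 1.55 times the other controls in FPKM, but peaks in mutant replicate 1. The added 1 FPKM makes the rises of Pgf and Vegfc (1.73 times in FPKM) look smaller.

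Relative to the pan-endothelial level, Flt1 stood at 0.06, 0.08 and 0.00 for controls against -0.04, 0.03 and 0.00 for mutants. Flt4 stood at -1.18, -1.07 and -1.19 for controls against -1.07, -1.21 and -1.1 for mutants. Kdr stood at 1.92, 1.99 and 1.62 for controls against 1.99, 1.85 and 1.8 for mutants. All 3 receptors overlapped between groups. Relative differences, mutant minus control, were -0.05 for Flt1, 0.02 for Flt4, 0.03 for Kdr, -0.08 for Nrp1 and -0.06 for Nrp2. The median over the 5 was -0.05. Limma standard errors of these differences were 0.407 (Nrp2) to 0.488 (Kdr). The 95% intervals ran from -0.92 to 0.82 for Flt1 and from -0.92 to 0.99 for Kdr, so values near 0 are not precise here.

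The ligands' relative differences were 0.35 for Vegfa, 0.12 for Vegfb, 0.12 for Vegfc and 0.27 for Pgf, with a median of 0.2. Limma 95% intervals ran from -0.54 to 1.23 for Vegfa and from -0.51 to 1.05 for Pgf. Subtracting the endothelial level raised the median of all tested genes to 0.15, which the ligands' values are to be read against. In this fit 0 of 9 VEGF genes passed at a limma adjusted p under 0.05, where 0% of tested genes did, and 0 of 9 at an unadjusted p, where 0.719% did. With weights estimated per library, limma called 0 of the 9 on deposited values, where 1.06% of tested genes were called, and 3 of the 9 relative to the pan-endothelial level, Vegfa at 0.21 (adjusted p = 0.00207), Pgf at -0.25 (adjusted p = 0.000333) and Nrp1 at -0.15 (adjusted p = 0.0185). That fit also called 57.3% of all tested genes, and the sign for Pgf was opposite to that in the unweighted fit. The estimation of the weights stopped before its convergence tolerance. Without control replicate 3 the relative differences were -0.02 for Vegfa and -0.29 for Vegfb, against a median of -0.2 over all tested genes (limma adjusted p of 0.967 and 0.741).

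Photoreceptor markers moved against the receptors, with the lowest sum, 3469.9 FPKM, in control replicate 3, where the receptors were highest. Pericyte and smooth muscle markers were also highest there, with a sum over 13 genes of 407 FPKM against 221 and 235 FPKM in the other controls and 259 to 308 FPKM for mutants. Astrocyte markers, from a cell type that makes VEGF-A, summed to 14.5 to 16.7 FPKM for controls against 14 to 18.6 FPKM for mutants. Muller glia markers summed to 633 to 681 FPKM and 574 to 676 FPKM. Pigment epithelium markers, of another known source, summed to 6.59 to 14.5 FPKM and 6.92 to 12.4 FPKM. Microglia and macrophage markers summed to 42.8 to 57.4 FPKM for controls against to 26.3, 52.1 and 65.2 FPKM for mutants, lowest in mutant replicate 1 and highest in mutant replicate 3, as Vegfa was. The part of any of these cells in the VEGF values was not tested.

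Sums for the remaining marker lists overlapped between groups. They were 60.7 to 73.7 FPKM for controls against 64.7 to 70.6 FPKM for mutants for lymphatic endothelium, 284 to 412 and 352 to 391 FPKM for bipolar cells, and 75 to 79.8 and 71.6 to 83.5 FPKM for amacrine and horizontal cells. Ganglion cell markers summed to 22.2 to 34.8 and 23.5 to 39.6 FPKM. Erythroid markers summed to 0.763 to 1.8 and 0.634 to 2.06 FPKM, with 4 of 6 genes at 0 in all libraries.

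The labels letter the libraries without saying what the letters stand for. Letters A to C cover control replicates 1 and 2 together with mutant replicate 1, and D to F the other 3 libraries. Among A to C the log2 difference was 0.07 for Kdr, -0.08 for Flt1, 0.08 for Flt4, -0.05 for Nrp1 and -0.25 for Nrp2. Among D to F, where control replicate 3 is the lone control, it was -0.59, -0.77, -0.75, -0.69 and -0.55 in the same order, beside -0.79 for the pan-endothelial level. Vegfa went the other way, at -0.38 among A to C and 0.49 among D to F. Differences within the sets for Vegfb, Vegfc and Pgf were -0.16, -0.03 and 0.64 among A to C and 0.09, -0.35 and -0.34 among D to F. With the letter sets as a block, limma differences were -0.43 for Flt1, -0.4 for Nrp2 and -0.37 for Nrp1, at unadjusted p of 0.0253, 0.0054 and 0.0305. The adjusted p was 0.718 for each. In that fit limma called 0 of 13622 tested genes, with 927 at an unadjusted p under 0.05. Relative to the pan-endothelial level, the same block gave -0.05 for Flt1, -0.02 for Nrp2 and 0.01 for Nrp1. The median of all tested genes was then 0.38. No VEGF gene had an unadjusted limma p under 0.05 in that relative fit, where 828 of all tested genes did.

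Receptor ratios within a library remove the shared rise and fall of endothelial RNA if both genes come from the same cells. The Nrp1 to Kdr ratio was 0.206, 0.202 and 0.205 for controls against 0.187, 0.194 and 0.181 for mutants. The groups did not overlap, every mutant lay lower, and control replicate 3 lay with the other controls. Means were 0.204 ± 0.00232 in controls and 0.188 ± 0.00662 in mutants (SD, n = 3 per group), a log2 difference of -0.12. The two-sided exact permutation p was 0.1, the smallest that 20 arrangements allow, and 0.3 after Benjamini-Hochberg adjustment over 3 ratios, so the design cannot carry this difference past 0.05. The log2 difference ran from -0.15 to -0.1 over single omitted libraries. Of 13493 tested genes above 0 in every library, 0.385% had a ratio to Kdr that was lower in every mutant than in every control. For 2.09% the ratio was higher in every mutant, a direction that the two-sided test also counts.

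The Flt1 to Kdr ratio was 0.268, 0.257 and 0.321 for controls against 0.237, 0.276 and 0.281 for mutants, so the groups overlapped. Its log2 difference was -0.09, with an exact permutation p of 0.6 (adjusted p = 0.9), and it was 0.01 without control replicate 3. The Flt4 to Kdr ratio was 0.107, 0.11 and 0.137 for controls against 0.11, 0.112 and 0.126 for mutants. Its log2 difference was -0.02, with an exact permutation p of 1, and it was 0.09 without control replicate 3. Both ratios were highest in control replicate 3, unlike that of Nrp1. Among all 10 pairs of the 5 receptors and co-receptors, compared after the values were seen, 1 pair had groups that did not overlap, Nrp1 with Kdr. For any pair, a share of 0.1 of the 20 arrangements sets the groups apart in one direction or the other, and the pairs share genes. Relative to the pan-endothelial level rather than to Kdr, Nrp1 overlapped between groups, at -0.3, -0.26 and -0.63 in controls and -0.36, -0.46 and -0.61 in mutants.

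**Figure D4:**
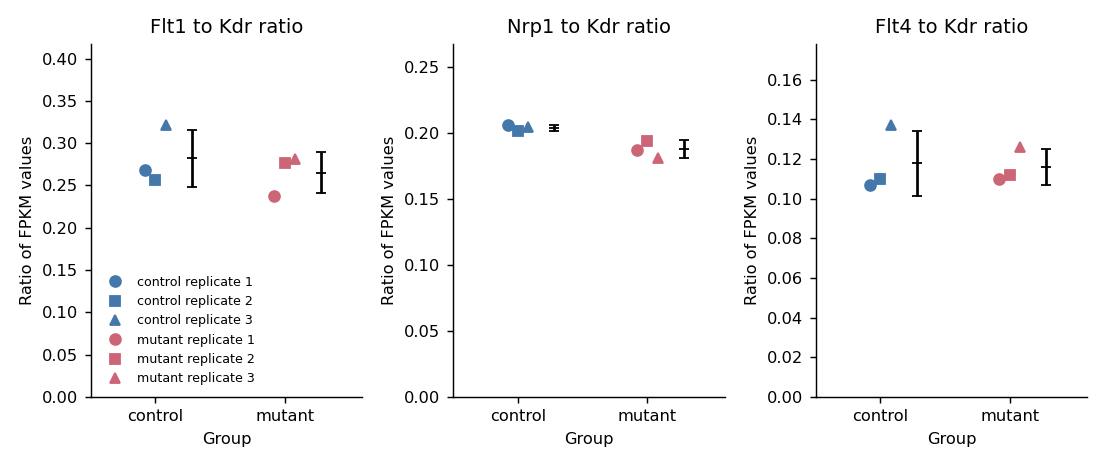
Ratios of FPKM values within each library (vertical axes from 0) for Flt1, Nrp1 and Flt4 over Kdr, with a black bar for the mean and whiskers for the SD of 3 libraries. The Nrp1 to Kdr ratio lies at 0.181 to 0.194 in mutants and at 0.202 to 0.206 in controls, while the other two ratios overlap.

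Ratios of ligand to Kdr values differed in spread between ligands, with an SD over 6 libraries on the log2 scale of 0.45 for Vegfa, 0.45 for Pgf, 0.37 for Vegfb and 0.15 for Vegfc. Vegfa stood at 0.31, 0.36 and 0.195 of the Kdr value for controls against 0.242, 0.384 and 0.454 for mutants. Control replicate 3 had the lowest ratio and mutant replicate 3 the highest, and the groups overlapped. For Vegfc the ratio was 0.0341, 0.029 and 0.0328 for controls against 0.0291, 0.0379 and 0.0352 for mutants, within a spread like that of the receptor pairs, 0.08 to 0.18.

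The wider pathway was read from lists of genes around the receptors, and 0 members of any list passed at a limma adjusted p under 0.05. Among partners and traffickers of the receptors, 14 of 15 tested genes had negative differences, with a median of -0.09, where 52.5% of all tested genes were negative with a median of -0.01. Relative to the pan-endothelial level 3 of the 15 were negative, with a median of 0.07, where 7.8% of all tested genes were negative with a median of 0.15. Control replicate 3 was the highest library for 11 of the 15, and the 20 pan-endothelial markers were themselves all negative in deposited values, with a median of -0.16. The part of endothelial RNA content in the signs of this and the following lists was not tested. Those with the smallest unadjusted p were Ptpn1, a phosphatase that acts on VEGFR2, at 21 ± 1.36 FPKM for controls against 19.2 ± 0.774 FPKM for mutants, Epn2, an endocytic adaptor for VEGFR2, at 25.8 ± 2.23 and 23.6 ± 0.759 FPKM, and the plexin Plxna4 at 8.6 ± 0.643 and 7.72 ± 0.423 FPKM (SD, n = 3 per group). Of 7 class 3 semaphorins, a family that includes ligands of the neuropilins, 5 were tested. They had 2 positive and 3 negative differences, against 0 negative relative to the pan-endothelial level. The most abundant, Sema3f, a ligand of Nrp2, stood at 45.3 ± 3.95 and 44.1 ± 1.42 FPKM. Sema3g stood at 7.96 ± 3.29 and 6.96 ± 0.689 FPKM, and Sema3e at 1.33 ± 0.275 and 1.54 ± 0.187 FPKM. Sema3a, a ligand of Nrp1, stayed at 0.853 to 1.13 FPKM. Adamts3, a protease that activates VEGF-C, measured 11 ± 0.787 and 10.5 ± 0.698 FPKM, whereas its cofactor Ccbe1 stayed at 0.101 to 0.163 FPKM.

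Signalling genes downstream of the receptors had a median difference of -0.06, with 22 of 26 negative, against 1 of 26 relative to the pan-endothelial level. Control replicate 3 was the highest library for 14 of them. The kinase Mapk3 measured 33.8 ± 3.16 FPKM for controls against 30.7 ± 1.54 FPKM for mutants, the adaptor Crk 35.3 ± 1.81 and 32 ± 4.38 FPKM, and the GTPase Rac1 69.8 ± 7.54 and 62.8 ± 7.2 FPKM (SD, n = 3 per group). Of the endothelial genes that VEGF is known to induce, 12 of 13 were tested, with 9 negative and 3 positive differences and a median of -0.09, against 4 negative relative to the pan-endothelial level. Control replicate 3 was the highest library for 11 of the 12. The chemokine receptor Cxcr4 read 13.5, 12.8 and 19.8 FPKM for controls against 10.3, 12.1 and 12.8 FPKM for mutants, with an unadjusted limma p of 0.0791 (adjusted p = 1). The transcription factor Mef2c measured 6.02 ± 2.72 and 4.49 ± 0.471 FPKM, and the Notch ligand Dll4 18.8 ± 9.39 and 15.2 ± 4.48 FPKM. Control replicate 3 was the highest library for each of these 3 genes, as for the receptors.

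Genes of the hypoxia response, which controls Vegfa transcription, gave 11 negative and 4 positive differences among 15 tested, with a median of -0.05, against 2 negative relative to the pan-endothelial level. Pdk1, a pyruvate dehydrogenase kinase, read 7.73, 8.24 and 7.49 FPKM for controls against 5.95, 6.64 and 6.77 FPKM for mutants, with an unadjusted limma p of 0.0505 (adjusted p = 1). Every mutant library lay below every control library for Pdk1, as for 1.56% of tested genes. The oxygen-sensing hydroxylase gene Egln3 measured 1.36 ± 0.134 FPKM for controls against 1.75 ± 0.466 FPKM for mutants, and Ankrd37, a hypoxia-induced gene, 13.2 ± 1.69 and 15.8 ± 3.99 FPKM (SD, n = 3 per group). The groups overlapped for both. Mutant replicate 3, where Vegfa was highest, was the highest library for 2 of the 15 genes, Egln3 and Ankrd37, and the others peaked elsewhere.

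**Figure D5:**
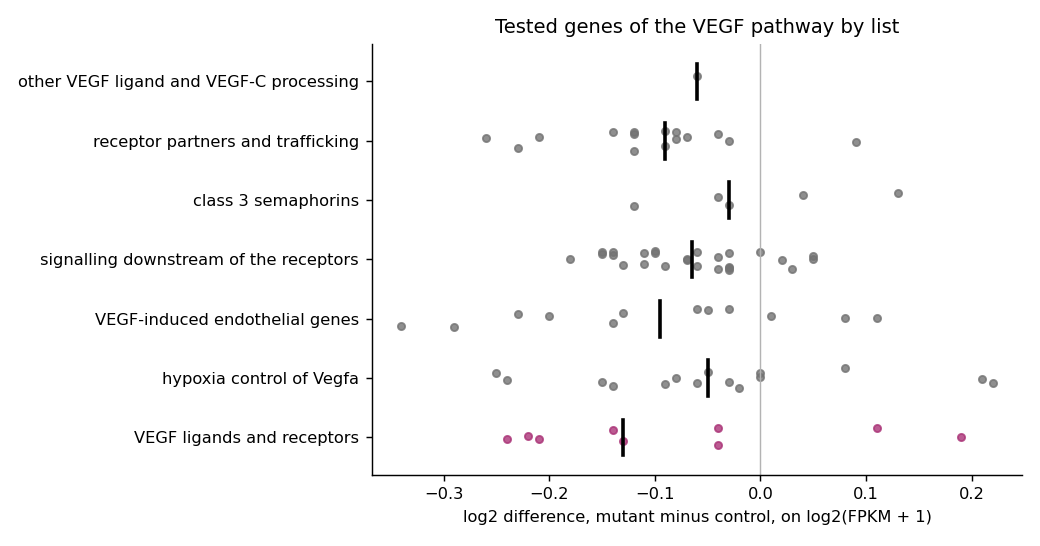
log2 differences, mutant minus control (horizontal axis), of the tested genes in each list (1 point per gene, spread vertically for view), with a black bar at the list's median. The medians lie between -0.13 for the VEGF ligands and receptors and -0.03 for the class 3 semaphorins, and no gene shown passed the test.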

How the data were processed

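RNA sequencing of 3 control and 3 mutant libraries was grouped by the titles in the labels. FPKM was the unit of the authors' table, with a column for each library. The submitters' processing notes name Cufflinks 2.2.1, STAR 2.5.0b, DESeq2 and bedtools 2.17.0 on build mm10, in roles not given in the sources used here, as are annotation, filters and strand use. Overlapping or antisense reads could therefore not be separated.

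Whole reads behind the FPKM values were recovered by fitting, per gene, the shortest length that makes all libraries whole, with the depth taken from short miRNA genes. Of 16491 rows without a 0, 99.99% came out whole to within 0.002 reads (0.05 at most where counts are high). Log2(FPKM + 1) values were fitted with limma 3.58.1 in R 4.3.3 (trended prior, two-sided, Benjamini-Hochberg over the 13622 genes that reached 1 FPKM in 3 or more libraries). A second fit first subtracted each library's mean over 20 pan-endothelial genes from every gene. Ratios were tested with exact permutation tests in scipy 1.17.1. The fits were also run on simulated counts, drawn independently per gene with a common spread. Those counts lack the endothelial shift of control replicate 3, so they do not show how the fits behave under it.

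The VEGF genes, marker lists and pathway lists were chosen with earlier results of these data known. Named genes were the 9 VEGF genes, up to 3 genes with the smallest p in each pathway list, the 2 most abundant of each marker list, Anxa3, and the 3 genes most like each VEGF gene in profile. Sema3a, Ccbe1, Pecam1, Cdh5, Ccl21a, Mmrn1 and Lyve1 were named after their values were seen. Alternatives were another pseudocount (0.1), no filter, quantile normalization, blocks, library weights, limma voom on recovered reads, a threshold of 0.1 and fits that each lacked 1 library. The design named a count test in case the values were counts, which they are not. Promoter windows are from RefSeq on GRCm38.p6, for 9 of 9 genes. Python 3.11.15 was used.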

Additional observations from a re-analysis of the deposited data

How the results depend on the processing

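Of the VEGF genes, 0 were called in the deposited values under every alternative run. The count over all genes was 0 except with library weights, where it was 145. Relative to the pan-endothelial mean, 3 VEGF genes were called with library weights and 0 under the other alternatives. The count over all genes in that fit, 0 as designed, was 7803 with library weights, 34 with the letter block, 6 with the replicate block, 96 without control replicate 3, 3 without control replicate 2 and 1 without control replicate 1, mutant replicate 1 or mutant replicate 2. Library weights, lowest for control replicate 3 (0.26) and highest for mutant replicate 2 (6.999), turned the differences of Vegfc (0.27), Pgf (-0.04), Kdr (0.04), Flt1 (0.1), Flt4 (0.06) and Nrp2 (0.06). Weights estimated separately on the values relative to the pan-endothelial mean, not given here, turned the relative differences of Pgf (-0.25), Kdr (-0.07) and Flt4 (-0.01). The cause of these turns was not tested. The subtraction turned Vegfb (0.12), Vegfc (0.12), Kdr (0.03) and Flt4 (0.02), and the letter block turned the relative difference of Nrp1 (0.01). Over single omitted libraries, differences ran from -0.06 to 0.47 for Vegfa, -0.1 to 0.05 for Vegfb, -0.2 to 0.17 for Vegfc, -0.09 to 0.29 for Pgf, -0.26 to 0.12 for Kdr, -0.4 to 0.12 for Flt1 and -0.31 to 0.19 for Flt4. Those for Nrp1 and Nrp2 ran from -0.38 and -0.36 up to 0. Relative differences ran from -0.02 to 0.6 for Vegfa, -0.29 to 0.42 for Vegfb, -0.02 to 0.22 for Vegfc, -0.01 to 0.43 for Pgf, -0.08 to 0.11 for Kdr and -0.19 to 0.01 for Nrp2. For Flt4 they ran from 0 to 0.06, with the value without mutant replicate 1 on the negative side of 0, and for Flt1 and Nrp1 they stayed negative, at -0.07 to -0.03 and -0.2 to -0.01. The log2 ratio differences ran from -0.15 to 0.01 for Flt1 to Kdr, -0.15 to -0.1 for Nrp1 to Kdr and -0.08 to 0.09 for Flt4 to Kdr.

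Same-numbered libraries deviated from their group means with correlations of 0.249, -0.151 and 0.391, and some libraries correlated better with another number. With 3 libraries per group, these correlations cannot tell whether the numbers pair the samples. With the replicate block 0 VEGF genes were called, with 0 genes called in all and 296 at an unadjusted limma p under 0.05. The Nrp1 to Kdr difference was -0.12 with the replicate block, at an exact sign-flip p of 0.25, the smallest that 3 pairs allow. Counting error limits Pgf, with 41 to 82 reads per library.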

Other observations

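Genes whose profile over the 6 libraries was most like that of each VEGF gene were sought among 10101 genes with a mean of at least 5 FPKM, by Pearson correlation of log2(FPKM + 1), given as a description. The libraries share tissue and depth, and control replicate 3 weighs heavily in the receptor profiles. For Kdr they were Pros1, which encodes protein S, the forkhead factor Foxq1 and the endothelial receptor Tie1, with r of 0.998 to 0.999. Foxq1 read 8.05, 7.67 and 21.6 FPKM for controls against 8.87, 8.88 and 11.1 FPKM for mutants, a larger rise in control replicate 3 than that of Kdr. For Flt1 they were Dock1, a Rac activator, Limch1 and Eogt, with r of 0.997 to 0.999. For Flt4 they were the laminin chain gene Lamb1, Crip2 and the endothelial surface protein gene Clec14a, with r of 0.998 to 0.999. Tie1 and Clec14a are also on the pan-endothelial list.

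For Nrp1 they were Tspan2, Spock2 and Prcp, with r of 0.998 to 0.999, and for Nrp2 Slc7a7, Smox and Adamtsl2, with r of 0.988 to 0.992. Spock2 read 97.5, 91.3 and 177 FPKM for controls against 87.5, 91.7 and 101 FPKM for mutants. The genes nearest to the ligands differed from these. For Vegfa they were Doc2g, Trim39 and Ppp1r3f, with r of 0.984 to 0.995, each highest in mutant replicate 3 and lowest in mutant replicate 1. For Vegfb they were Pigo, Zfp862-ps and Casc3, with r of 0.953 to 0.986. For Vegfc they were the actin-binding thymosin gene Tmsb4x, Fkbp7 and the proteoglycan gene Srgn, with r of 0.992 to 0.996, each highest in control replicate 3. For Pgf they were Fez2, Pdia6 and Mettl2, with r of 0.968 to 0.974.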
